A study of Mus musculus with 12 samples.

Results

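A set of 10 genes of matricellular and matrix glycoproteins, of the 18193 genes measured, was followed through the mammary glands of 12 mice. They are Spon1, Spon2, Cthrc1, Tnc, Postn, Sparc, Thbs1, Thbs2, Fn1 and Fbln2, and 23 of the 45101 probe sets of the array carry such a symbol, 22 of them no other symbol. The list was chosen by name, but with earlier results of these data known. Spon1 and Cthrc1 were selected on their estradiol responses in these same arrays. Values of those 2 genes are therefore given as a description with no test, except in the average difference between genotypes, which does not use the estradiol contrast. The other 8 genes were tested, and p-values were adjusted over all 18193 genes.

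The mice were virgin C57BL/6 females, ovariectomized so that the ovary no longer supplied estrogen, and either Ccnd1+/+ (wildtype) or Ccnd1-/- (knockout). Ccnd1 encodes cyclin D1, which activates kinases that move cells towards DNA replication. Each genotype received either placebo or estradiol-releasing pellets (0.72 mg, 60-day release) for 7 days, with 3 mice per group and 1 array per mouse. The labels give neither the construct of the knockout allele nor the age of the mice, and they do not say whether the lymph node was removed from the gland. Total RNA of the whole gland was measured, so fewer cells of a type and less RNA per cell cannot be told apart in any value below. All levels are the deposited log2 intensities, on which a difference of 1 is a doubling.

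Matricellular proteins are secreted into the matrix but serve mainly as signals to cells rather than as scaffold. They bind integrins, growth factors and structural collagens and are made in quantity where tissue grows, is remodelled or heals. Fibronectin and the fibulins form part of the scaffold itself, on which collagens and elastic fibres assemble. In the mammary gland the matrix around the ducts is made largely by stromal fibroblasts, with contributions from myoepithelial cells.

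The genotype labels were checked on Ccnd1, whose level lay between 7.24 and 7.68 in the 6 knockout arrays and between 8.50 and 10.82 in the 6 wildtype arrays, a difference of -1.93 (two-sided exact permutation test, p = 0.00216, the smallest p the 924 arrangements allow). No 2 arrays were identical. The lymphocyte score, the mean of 5 lymphocyte genes centred over the arrays, ran from -2.75 to 2.67 and differed as much within groups as between them. A skeletal muscle score, made in the same way from 6 genes, ran from -3.73 to 3.53. With 3 arrays a group, the number of arrays sets the precision.

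Promoter sequence is available here for 5 of the 10 genes, Tnc, Postn, Sparc, Thbs2 and Fbln2, with 7 start sites among them (RefSeq, GRCm38.p6). The 250 bases before the start are shown for a pair of genes whose wildtype groups did not overlap, Fbln2 (chr6:91212514-91212763, plus strand) and Thbs2 (chr17:14694263-14694512, minus strand), and for Sparc (chr11:55420081-55420330, minus strand), whose groups did overlap. Capitals mark a GC box in Fbln2, a TATA box in Thbs2 and an estrogen receptor half-site in Sparc, each spelled on the strand opposite to its usual form.
Fbln2: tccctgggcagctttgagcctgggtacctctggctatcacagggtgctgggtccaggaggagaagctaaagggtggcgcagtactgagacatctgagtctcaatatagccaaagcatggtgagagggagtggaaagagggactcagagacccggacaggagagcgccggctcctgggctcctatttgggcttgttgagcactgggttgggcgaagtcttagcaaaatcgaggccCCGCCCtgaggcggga
Thbs2: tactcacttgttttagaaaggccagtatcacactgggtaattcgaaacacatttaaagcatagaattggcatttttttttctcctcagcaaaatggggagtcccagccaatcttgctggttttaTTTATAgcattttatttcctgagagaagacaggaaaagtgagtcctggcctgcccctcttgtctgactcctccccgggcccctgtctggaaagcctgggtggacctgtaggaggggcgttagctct
Sparc: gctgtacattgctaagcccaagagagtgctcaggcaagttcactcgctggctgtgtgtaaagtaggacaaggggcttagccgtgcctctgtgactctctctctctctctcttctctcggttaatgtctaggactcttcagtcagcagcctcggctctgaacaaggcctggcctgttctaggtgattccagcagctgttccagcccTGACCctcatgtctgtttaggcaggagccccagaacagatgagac
The letters searched on both strands were GGGCGG for the GC box, TATAAA for the TATA box, TGANTCA for the AP-1 site and GGTCA for the estrogen receptor half-site. A complete estrogen response element, which is 2 half-sites facing each other across 3 bases, was found in 0.06% of the 32851 windows of this length and in none of the 7. The half-site stood in 35.24% of all windows and in 2 of the 7, at 45 bases before the start of Sparc and 138 before one start of Postn. GC boxes stood in 32.74%, TATA boxes in 12.37% and AP-1 sites in 6.75% of all windows, the last in none of the 7. Besides the boxes marked above, the overlapping windows of both Tnc starts held the same GC box and TATA box. A TATA box also stood 26 bases before a start of Postn. A match of these letters is a description of the window and does not show that a factor binds there.

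In both genotypes, the estradiol arrays of the spondins lay above the placebo arrays. Spon1 (chromosome 7) encodes F-spondin, a secreted protein with thrombospondin type repeats that was first studied in the guidance of growing axons. In wildtype glands it measured 7.77, 8.39 and 9.01 on placebo and 12.05, 11.95 and 12.17 under estradiol. The corresponding knockout arrays gave 9.24, 8.72 and 8.34 on placebo and 10.92, 11.39 and 10.96 under estradiol. The placebo groups of the 2 genotypes overlapped, and the 3 wildtype estradiol arrays lay above the 3 knockout estradiol arrays. The difference was 3.67 (95% interval 2.99 to 4.35), or 12.7-fold, in wildtype and 2.32 (1.64 to 3.00), or 4.99-fold, in knockout.

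Spon2 (chromosome 5) encodes mindin, a secreted relative of F-spondin that binds bacterial surface molecules and integrins of immune cells. Its wildtype arrays measured 5.71, 6.17 and 6.55 on placebo and 9.59, 8.86 and 10.46 under estradiol. Spon2 rose in wildtype by 3.49 ± 0.43 (SE), an 11.3-fold difference (limma, adjusted p = 0.00483). In knockout glands its level was 5.81, 6.44 and 5.97 on placebo and 8.89, 7.78 and 7.72 under estradiol, again without overlap. The knockout difference was 2.06 ± 0.43 (SE), or 4.17-fold, and did not pass the test (adjusted p = 0.198), and the highest knockout estradiol array (8.89) lay just above the lowest wildtype one (8.86). The rise in wildtype held with any 1 of the 12 arrays left out, and its adjusted p reached 0.0505 when the 6 wildtype arrays were fitted without the others.

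Cthrc1 (chromosome 15) encodes a secreted collagen triple helix repeat protein made by activated fibroblasts and in injured arteries. It is measured by a single probe set and was high in 1 of the 4 groups. Wildtype placebo arrays gave 4.21, 4.54 and 5.23, and wildtype estradiol arrays 7.54, 7.42 and 7.56. In knockout its placebo arrays were at 5.37, 5.56 and 6.25 and its estradiol arrays at 5.50, 5.90 and 5.01. All 3 wildtype estradiol arrays stood above the other 9, the knockout groups overlapped, and every knockout array lay above the wildtype placebo mean of 4.66. The estradiol difference was 2.85 (2.16 to 3.54), or 7.21-fold, in wildtype and -0.26 (-0.95 to 0.43) in knockout.

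**Figure D1:**
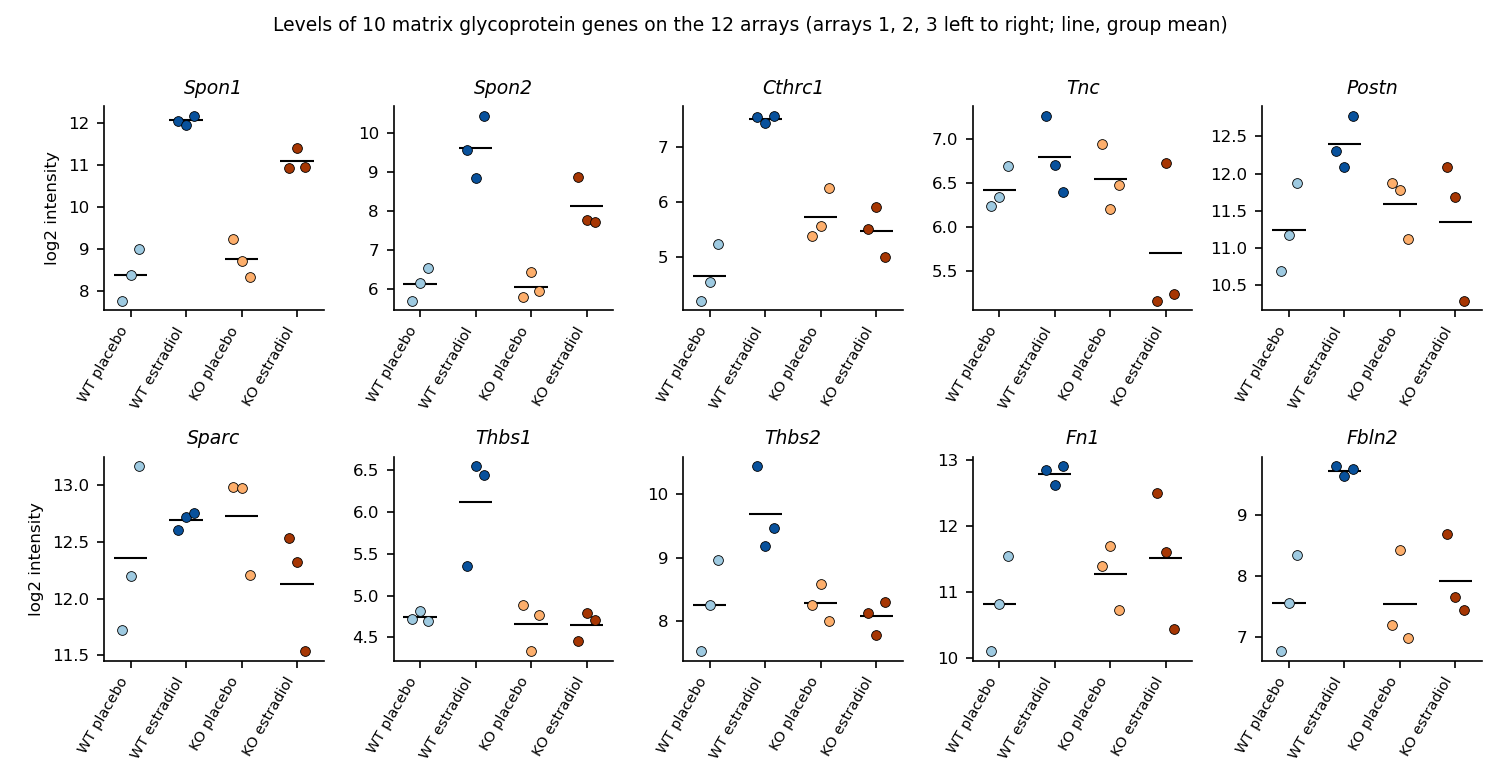
Log2 intensity of the 10 genes (a panel per gene, each with its own vertical scale) on the 3 arrays of each group, with a line at the group mean. Spon1 and Spon2 were higher under estradiol than on placebo in both genotypes, without overlap. For Spon1, Cthrc1, Postn, Thbs1, Thbs2, Fn1 and Fbln2 the 3 wildtype estradiol arrays stood above all others, for Postn by a narrow margin. For Tnc and Sparc placebo and estradiol arrays overlapped in both genotypes.

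The thrombospondins Thbs1 (chromosome 2) and Thbs2 (chromosome 17) encode matricellular proteins that limit the growth of blood vessels, and thrombospondin 1 also activates latent TGF-beta. Thbs1 was at 4.73, 4.82 and 4.69 on wildtype placebo, and at 5.36, 6.55 and 6.45 on wildtype estradiol. The knockout levels, 4.89, 4.33 and 4.77 on placebo and 4.45, 4.79 and 4.71 on estradiol, enclosed the range of wildtype placebo. Thbs1 rose in wildtype by 1.37 ± 0.28 (SE), or 2.59-fold (limma, adjusted p = 0.0399), and its knockout difference was -0.01 (-0.63 to 0.61). The signal of its brightest probe set was low, ranking between percentile 25.6 and 59.7 of all probe sets of an array. The call was lost when any of 9 single arrays was left out (wildtype placebo 1 and 2, wildtype estradiol 2 and 3, knockout placebo 1 and 3 and the 3 knockout estradiol arrays), with differences of 1.16 to 1.41 and adjusted p of 0.0547 to 0.158.

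Thbs2 was likewise highest in wildtype estradiol. It measured 7.53, 8.25 and 8.96 on wildtype placebo against 10.44, 9.18 and 9.46 under estradiol, and its knockout levels stayed between 7.79 and 8.59 in both groups. The wildtype groups did not overlap, yet the difference of 1.44 (0.58 to 2.31) did not pass the test (adjusted p = 0.0996). In knockout the difference was -0.20 (-1.07 to 0.66).

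Fn1 (chromosome 1), which encodes fibronectin, and Fbln2 (chromosome 6), which encodes fibulin 2, a binding partner of fibronectin and elastic fibre proteins, had tight wildtype estradiol groups above a wide spread elsewhere. Fn1 was at 10.10, 10.82 and 11.54 on wildtype placebo and at 12.85, 12.62 and 12.91 on wildtype estradiol. The knockout arrays gave 11.39, 11.70 and 10.72 on placebo, and 12.50, 11.61 and 10.44 under estradiol. The wildtype difference was 1.97 (0.86 to 3.08; adjusted p = 0.0862) and the knockout difference 0.25 (-0.86 to 1.36; adjusted p = 0.916), and knockout estradiol held both the highest and the lowest of the 6 knockout arrays.

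For Fbln2 the wildtype arrays ran 6.76, 7.55 and 8.34 on placebo and 9.81, 9.65 and 9.76 under estradiol. Its knockout arrays overlapped, at 7.19, 8.43 and 6.98 on placebo and 8.69, 7.65 and 7.43 under estradiol. The wildtype difference of 2.19 (1.12 to 3.25), or 4.55-fold, had an adjusted p of 0.0513 and so lay just outside the threshold, and in knockout the difference was 0.39 (-0.68 to 1.45).

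Periostin, SPARC and tenascin C, which are classed together as matricellular proteins of growing and healing tissue, differed less. Postn (chromosome 3) encodes periostin, which promotes cross-linking of collagen, and lay at 10.69, 11.17 and 11.87 on wildtype placebo and 12.30, 12.09 and 12.78 under estradiol. Its difference of 1.15 (0.14 to 2.16) did not pass the test (adjusted p = 0.29) although the groups did not overlap. In knockout its estradiol arrays ran from 10.29 to 12.09 and enclosed the placebo range of 11.12 to 11.87.

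Sparc (chromosome 11), whose product binds collagen and calcium, ranged from 11.72 to 13.16 on wildtype placebo and from 12.60 to 12.75 under estradiol, a difference of 0.33 (-0.50 to 1.16). Its knockout arrays ran from 12.21 to 12.98 on placebo and from 11.54 to 12.53 under estradiol. Tnc (chromosome 4) encodes tenascin C, which weakens the adhesion of cells to fibronectin, and measured 6.23, 6.34 and 6.69 on wildtype placebo and 7.26, 6.70 and 6.40 under estradiol. In knockout it gave 6.94, 6.20 and 6.47 on placebo and 5.16, 6.72 and 5.24 under estradiol, a difference of -0.83 (-1.71 to 0.05; adjusted p = 0.623). Neither gene passed the test in either genotype, and the groups overlapped in both.

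Across the 8 tested genes, Spon2 and Thbs1 rose with estradiol in wildtype, where 1.83% of all genes rose. All 8 differences were above 0, as were 52% of all genes, with a median of 1.41 against 0.01 over all genes. The wildtype groups did not overlap in 6 of the 8, higher under estradiol, an arrangement found in 11.9% of all genes. In knockout none of the 8 was called, and 0.0989% of all genes were. There 1 of the 8, Spon2, had an unadjusted p under 0.05, against 8.32% of all genes, and it was also the only gene of the 8 whose knockout groups did not overlap, higher under estradiol, against 8.37% of all genes. The median of the 8 was -0.11 in knockout. All 10 genes are read from the same arrays, so their directions are not independent of each other. The list was also drawn up with earlier results of these data known, so its counts beside all genes are a description.

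**Figure D2:**
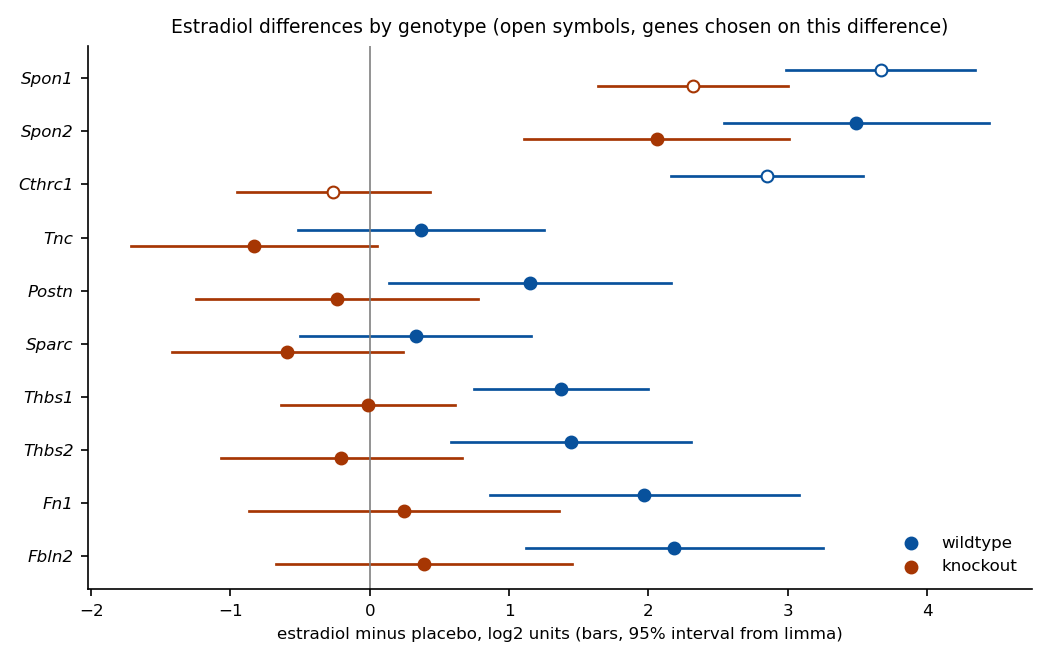
Estradiol minus placebo in log2 units for each gene in wildtype (blue) and knockout (brown), with the 95% interval of the limma fit; open symbols mark Spon1 and Cthrc1, which were chosen on this difference. The knockout value lies to the left of the wildtype value for the 8 tested genes, and the knockout interval lies wholly above 0 for Spon1 and Spon2 and includes 0 for the other 8.

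The 2 genotypes were compared next under each treatment. On placebo, none of the 8 genes was called, and no gene of the whole array was (0% of 18193), while 2.03% of all genes and none of the 8 had an unadjusted p under 0.05. The differences of the 8, knockout minus wildtype, lay between -0.08 (Thbs1) and 0.45 (Fn1), every group pair overlapped, and all adjusted p were 1. Of the genes given without a test, Cthrc1 was 1.07 (0.38 to 1.76) higher in knockout with no overlap, and Spon1 differed by 0.38 (-0.30 to 1.06).

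Under estradiol all 8 tested genes had a lower mean in knockout, as 44.8% of all genes had. Thbs1 fell by 1.47 ± 0.28 (SE), or 2.76-fold (limma, adjusted p = 0.0389), the 1 gene called among the 8, where 1.09% of all genes were called lower. This call ended without the same 9 arrays as its estradiol call, one at a time, with differences of -1.53 to -1.25 and adjusted p of 0.0599 to 0.135. Among the rest, Fbln2 differed by -1.81 (adjusted p = 0.119), Thbs2 by -1.61 (0.0863 adjusted), Spon2 by -1.50 (0.148), Fn1 by -1.28 (0.296), Tnc by -1.08 (0.269), Postn by -1.04 (0.36) and Sparc by -0.56 (0.551). The knockout arrays lay wholly below the wildtype arrays in 6 of the 8, all but Spon2 and Tnc, against 11.8% of all genes. The median of the 8 was -1.37, against 0.03 over all genes. Spon1 and Cthrc1, given without a test, differed by -0.97 and -2.04, in both cases without overlap. This comparison and the wildtype estradiol comparison share the 3 wildtype estradiol arrays.

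The series' title asks whether cyclin D1 determines estrogen signalling in the gland. The interaction, the knockout response minus the wildtype response, compares RNA of whole glands and so does not separate cell number from RNA per cell. It was below 0 for all 8 tested genes, as for 49.9% of all genes, and none of the 8 was called. Among all genes 0.011% were called. An unadjusted p under 0.05 was seen in 5 of the 8 (Spon2, Thbs1, Thbs2, Fn1 and Fbln2) and in 6.43% of all genes. The lowest adjusted p was that of Thbs1, at 0.475, with an interaction of -1.38 (-2.27 to -0.50), which passed at 0.0458 when wildtype estradiol array 1 was left out. That array had the lowest Thbs1 level of its group, and without it calls over all genes went from 2 to 18. Among the 8, Fbln2 had the most negative value, -1.80 (-3.30 to -0.29; adjusted p = 0.683), and Sparc the least, -0.92 (-2.10 to 0.25). Spon1 and Cthrc1, whose interaction contains the contrast they were selected on, had values of -1.35 and -3.11, given without a test.

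Averaged over both treatments, all 10 genes could be tested for genotype, and none was called, nor was any gene of the array (0%). Here 4 of the 10 (Spon2, Thbs1, Thbs2 and Fbln2) had an unadjusted p under 0.05, against 10.1% of all genes. The average difference was -0.29 (-0.77 to 0.19; adjusted p = 0.683) for Spon1 and -0.48 (-0.97 to 0.00; adjusted p = 0.496) for Cthrc1. Thbs1 had the lowest adjusted p, 0.227, at -0.77, and it was called when wildtype estradiol array 1 was left out (adjusted p = 0.0247). Without that array, the one with its lowest level in the group, calls over all genes went from 0 to 66.

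Further probe sets of the same genes were compared, since each reads another stretch of the transcript. The 4 Spon1 probe sets gave wildtype differences of 2.93 to 3.67 and knockout differences of 1.06 to 2.32, without overlap of groups in any of them. The second Spon2 probe set, 1458175_at, gave smaller values. In wildtype its difference was 1.22 ± 0.32 (SE), without overlap, and did not pass (adjusted p = 0.129 in the limma fit of single probe sets). In knockout it was 0.17 ± 0.32, and the groups overlapped. The wildtype call and the knockout difference of Spon2 thus rest on its brighter probe set, 1417860_a_at.

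The 3 Thbs2 probe sets ran between 1.11 and 1.44 in wildtype and between -0.49 and -0.20 in knockout. A second Fn1 probe set, 1437218_at, gave 1.84 in wildtype and 1.27 in knockout. It lay under the lower quartile of the array on 5 of the 12 arrays, all of them placebo arrays. Unlike the brighter Fn1 probe set, its knockout groups did not overlap (adjusted p = 0.622 in the limma fit of single probe sets). Its interaction was -0.56 (-2.05 to 0.93), and under estradiol its genotype groups overlapped (-0.63). A pair of further probe sets for Sparc gave 0.36 and -0.02 in wildtype, and that of Tnc gave 0.17. Thbs1 was read by 1450377_at at 0.51, with 6 arrays under the lower quartile, and the second Fbln2 probe set, 1438375_at, was under the lower quartile on all 12 arrays. Fitted among 45037 single probe sets, the brightest Thbs1 probe set kept its difference and had an adjusted p of 0.0545, and 1417860_a_at of Spon2 had 0.00596.

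**Figure D3:**
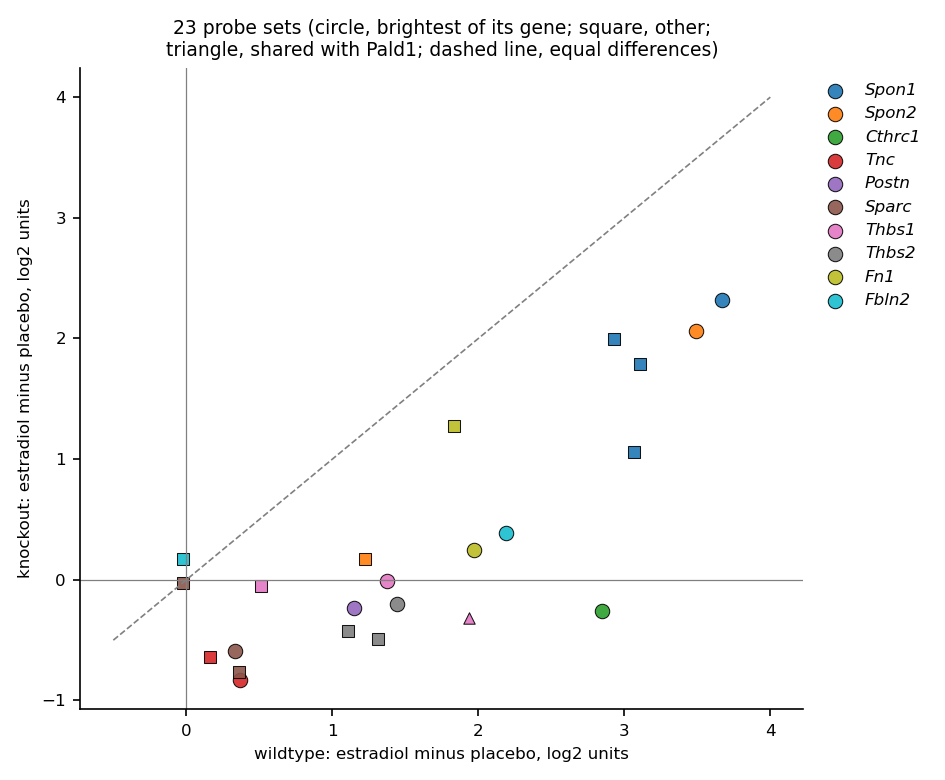
Estradiol minus placebo in wildtype (horizontal) and knockout (vertical), in log2 units, for the 23 probe sets of the 10 genes; the dashed line marks equal differences. The 4 Spon1 probe sets and the brighter Spon2 probe set lie above 1 on both axes, as does the dim Fn1 probe set 1437218_at, and the Thbs2 probe sets lie above 1 in wildtype and below 0 in knockout.

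Related genes were counted to place the set within the matrix. Of 88 other matricellular and matrix glycoproteins 84 were measured, and 6 rose with estradiol in wildtype, where 1.83% of all genes rose, and none fell. The count ran from 2 without wildtype placebo 2 to 18 without wildtype placebo 3, where 6.3% of all genes were called. They were Frem1 (2.82 ± 0.28, SE), a basement membrane protein, Rspo1 (2.34 ± 0.40), a secreted enhancer of Wnt signalling, Hmcn1 (2.28 ± 0.36), Ccn1 (2.15 ± 0.28), a matricellular integrin ligand, Fbln7 (1.21 ± 0.25) and Emilin1 (1.18 ± 0.17). The list's median was 0.49, with 65 of 84 above 0. Fbln7 lost its call without any of 10 single arrays (differences 1.0 to 1.35), Rspo1 without wildtype placebo 1 or 2 or wildtype estradiol 1 or 3 (2.20 to 2.47), and Hmcn1 and Emilin1 without wildtype placebo 2 (2.21 and 1.13).

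Of 26 measured receptors that bind proteins of this kind, 4 rose in wildtype, where 1.83% of all genes rose. They were Ror2 (2.13 ± 0.26, SE), Itga8 (2.01 ± 0.29), Lrp1 (1.51 ± 0.32) and Itgav (1.04 ± 0.16). Ror2 is a Wnt receptor, Itga8 and Itgav are integrin subunits that recognise fibronectin and related ligands, and Lrp1 is an endocytic receptor for thrombospondins. Lrp1 lost its call without any of 11 single arrays (1.16 to 1.58) and Itgav without wildtype placebo 2 (1.04). The list's median was 0.31, with 17 of 26 above 0. Its count ran from 2 without wildtype placebo 2 to 6 without wildtype placebo 3, where 6.3% of all genes were called.

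The list of collagens, their processing and cross-linking enzymes and small proteoglycans such as Dcn and Lum had a median of 1.04 over 19 measured genes, 18 of them above 0. Col11a1 alone rose (1.11 ± 0.23, SE), where 1.83% of all genes rose, and its call was lost without any of 9 single arrays (1.0 to 1.17). Without wildtype placebo 3 the list held 10 calls, where 6.3% of all genes were called. Among 16 TGF-beta ligands, receptors and targets, Tgfb2 (2.06 ± 0.38) and Tgfb3 (1.87 ± 0.31) rose, against the same 1.83% of all genes, with a median of 0.21. Without wildtype placebo 1 or 2 or wildtype estradiol 3 the list held 0 calls, where 0.588%, 0.55% and 0.841% of all genes were called. Tgfb2 lost its call without wildtype placebo 1 or 2 or wildtype estradiol 2 or 3 (1.93 to 2.0), and Tgfb3 without wildtype placebo 1 or 2 or wildtype estradiol 3 (1.69 to 1.93).

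In knockout glands no gene of these 4 lists was called with estradiol, where 0.0989% of all genes were. The list medians were -0.10 for the other glycoproteins, -0.07 for receptors, -0.18 for collagens and -0.19 for the TGF-beta list. The genes with the smallest p there included Ccn1 at 1.16 (adjusted p = 0.307), Vtn at -1.10 (0.281), Ror2 at 1.02 (0.317), Fzd6 at -1.17 (0.312), Col6a2 at -0.66 (0.569) and Smad4 at -0.31 (0.602). On placebo, in the interaction and in the average over treatments none of the 4 lists held a call either. There 0%, 0.011% and 0% of all genes were called. On placebo the smallest p belonged to Fgg, a fibrinogen chain, at -3.23, Fzd6 at 0.68, Col6a2 at 0.59 and Inhba at 0.19, all with an adjusted p of 1. In the interaction the values with the smallest p in the glycoprotein, receptor, collagen and TGF-beta lists were those of Frem1, at -2.08 (adjusted p = 0.194), Itga8, at -2.24 (0.194), Col11a1, at -1.24 (0.396), and Tgfb3, at -2.12 (0.204).

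Under estradiol, 1 other glycoprotein was lower in knockout by the test, Frem1 (-1.89 ± 0.28, SE), 1 of 84 measured, where 1.09% of all genes were called lower. Of the 26 receptors, Itga8 (-2.15 ± 0.29), Fzd6 (-1.50 ± 0.29), a Wnt receptor, and Itgav (-0.98 ± 0.16) fell, and Col11a1 (-1.28 ± 0.23) and Tgfb3 (-2.02 ± 0.31) fell in their lists. Medians were -0.62, -0.45, -0.82 and -0.32 in the same order of lists. Each of these 6 calls ended without certain single arrays. Itga8 lost it without wildtype estradiol 3 or knockout estradiol 3 (-2.26 to -2.15), and Tgfb3 without wildtype estradiol 3 or knockout estradiol 2 or 3 (-2.08 to -1.89). The arrays were wildtype estradiol 2 and 3 and knockout estradiol 2 and 3 for Frem1 (-1.97 to -1.68), and the same 4 with knockout estradiol 1 for Itgav (-1.05 to -0.87). Col11a1 lost its call without any of 8 single arrays (-1.39 to -1.17) and Fzd6 without any of 10 (-1.59 to -1.20).

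**Figure D4:**
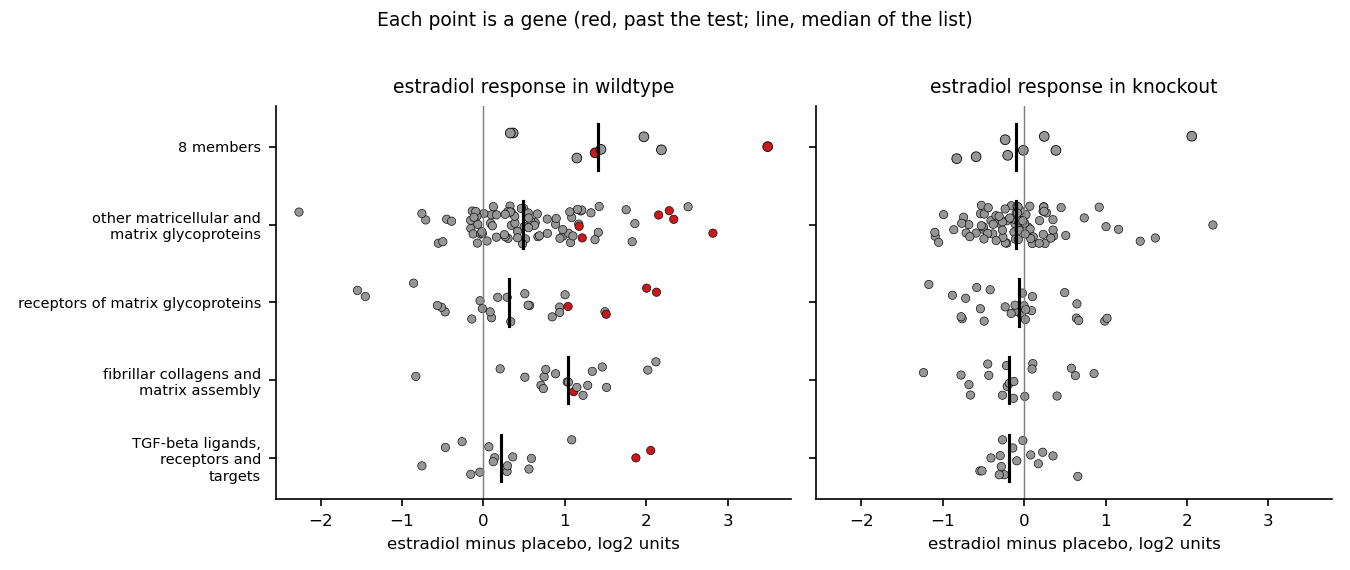
Estradiol minus placebo in log2 units in wildtype (left) and knockout (right), each point a gene, for the 8 tested members and the 4 related lists; red marks genes past the test and the line is the list's median. In wildtype the medians of the members and of the collagen list lie at 1.41 and 1.04, and in knockout all 5 medians lie between -0.19 and -0.07 with no gene past the test.

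Markers of the cells that the gland holds were measured in the same arrays. The fibroblast score, the mean of 9 centred fibroblast genes, ran from -0.76 to 0.31 on wildtype placebo, 0.36 to 0.72 on wildtype estradiol, -0.48 to 0.53 on knockout placebo and -0.55 to 0.00 on knockout estradiol. Its mean was highest in wildtype estradiol, where 8 of the 9 genes had a difference above 0 and 1, Pdgfra, rose (1.72 ± 0.22, SE). For this and the other marker lists, the share of all genes that rose with estradiol in wildtype was 1.83%. In knockout the score differed by -0.14 with estradiol, against 2.32 for Spon1, 2.06 for Spon2 and a median of -0.11 over the 8 tested members. The basal and myoepithelial score ran from 0.71 to 1.43 in wildtype estradiol and from -0.89 to 0.04 in the other 3 groups, with Oxtr (4.46), Cnn1 (1.97) and Acta2 (1.59) rising among its 9 genes. The luminal score ran from 1.27 to 2.61 in wildtype estradiol, from -0.04 to 0.74 on wildtype placebo and from -1.93 to 0.24 in knockout, and the macrophage score from 0.50 to 1.89 in wildtype estradiol and from -0.73 to 0.21 in the other groups. Among 9 luminal genes, Krt19 (-5.13), Elf5 (-4.57) and Cdh1 (-3.79) fell in knockout under estradiol, where 1.09% of all genes were called lower. In the same comparison the basal genes Cnn1 (-2.15) and Acta2 (-1.56) fell. Of 3 measured genes listed for Schwann cells, Sox10 alone was called. It rose with estradiol in wildtype (1.68) and fell in knockout under estradiol (-2.19), near the values of the basal genes Cnn1 and Acta2. Which cells Sox10 reads here was not tested. The score of the 3 genes ran from 0.54 to 1.13 in wildtype estradiol and from -1.43 to 0.61 in the other groups. Rgs5, a pericyte gene, fell by 0.893 with estradiol in wildtype, and the platelet score ran from 0.09 to 0.33 there and from -0.47 to 0.20 elsewhere. The part that any of these marker lists, the fibroblast genes included, has in the members' differences was not tested.

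Each member's level was also set against the fibroblast score of its array by subtraction. This description was added after the data were seen. The score itself holds matrix genes such as Col1a1, Col3a1 and Dcn and is no measure of cell number. The subtraction was not made for all genes, so the overlaps below have no share over all genes beside them and are only a description. The subtraction left wildtype estradiol differences of 2.88 for Spon1, 2.71 for Spon2, 2.06 for Cthrc1, 1.40 for Fbln2, 1.18 for Fn1, 0.66 for Thbs2 and 0.36 for Postn, with groups that did not overlap. For Thbs1 it left 0.59 with overlapping groups. The difference of Tnc turned to -0.42 with overlapping groups, and that of Sparc to -0.46 with the estradiol arrays wholly below the placebo arrays. In knockout the spondins stood at 2.46 and 2.20. Under estradiol the knockout arrays remained wholly below the wildtype arrays for Cthrc1 (-1.29) and Fbln2 (-1.07), and the groups overlapped for the other 8, Thbs1 among them (-0.72).

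Most members deviated in the same direction on some arrays of a group. In wildtype placebo, array 1 was the lowest of the 3 in 9 of the 10 genes and array 3 the highest in 9, Thbs1 being the exception in both. The median deviation from the group mean was -0.59 on array 1 and 0.62 on array 3, and the fibroblast score deviated by -0.50 and 0.56. In knockout, array 3 was the lowest of its group in 6 of the 10 genes on placebo and in 6 under estradiol, with median deviations of -0.35 and -0.46 and fibroblast score deviations of -0.41 and -0.34. In wildtype estradiol, array 2 was the lowest in 7 of the 10 genes, and the members parted on array 1, where Thbs1 deviated by -0.76, Thbs2 by 0.74 and Tnc by 0.47, with a median of 0.01. Wildtype estradiol arrays spread least for Cthrc1, Sparc and Fbln2, whose SD there was 0.08 in each case. Array 3 of wildtype placebo was also the group's lowest in lymphocyte genes (score -2.10) and in skeletal muscle genes (score -1.08). Without it the wildtype estradiol comparison called 5 of the 8 genes, Thbs2, Fn1 and Fbln2 in addition to Spon2 and Thbs1. Calls over all genes then went from 342 to 1146, or 6.3% of them.

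**Figure D5:**
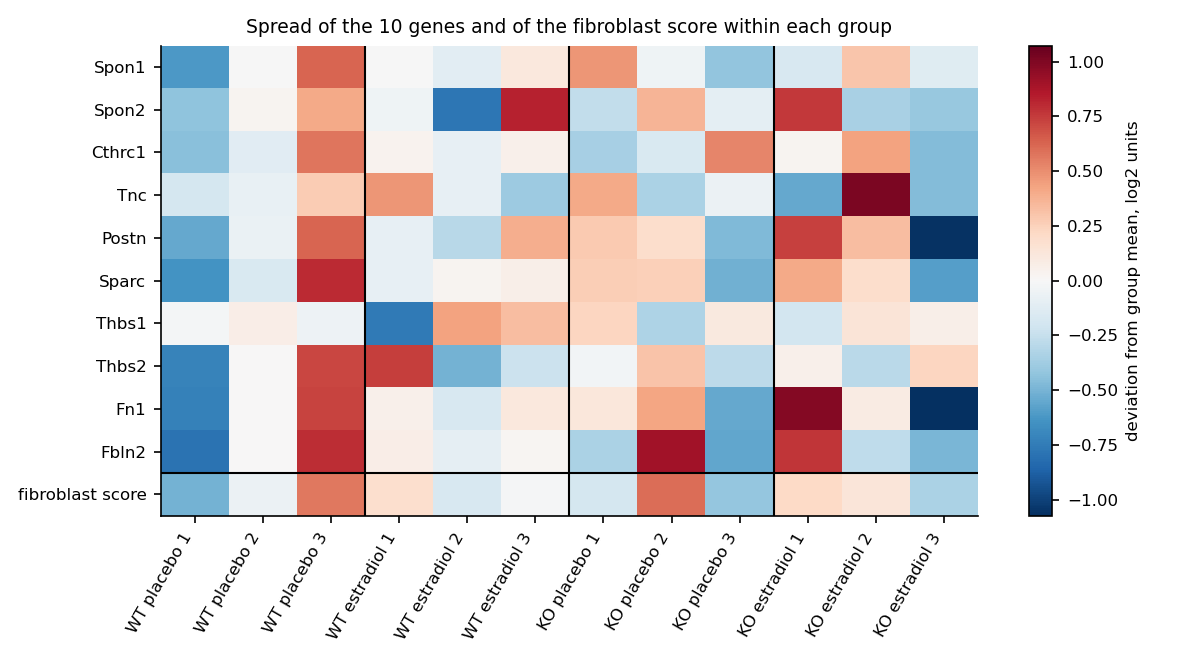
Deviation of each array from its group mean, in log2 units, for the 10 genes and, in the last row, for the fibroblast score; vertical lines separate the 4 groups. Wildtype placebo 1 is below the group mean in all 10 genes and wildtype placebo 3 above it in all but Thbs1, and knockout estradiol 3 is more than 1 below it for Postn and Fn1.

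The genes whose levels ran closest to those of Spon1 over the 12 arrays were sought by the mean absolute difference of centred log2 levels. They were Mup10 (0.36), a major urinary protein, Lrg1 (0.37), a secreted glycoprotein, and Plod2 (0.38), a lysyl hydroxylase of collagen. Their differences with estradiol were 3.36, 2.63 and 3.74 in wildtype and 2.34, 2.28 and 2.88 in knockout. For Cthrc1 they were Afap1l2 (0.37), Padi4 (0.38), an enzyme that converts arginine in proteins to citrulline, and Ano4 (0.40), with wildtype differences of 2.12, 2.24 and 1.92 and knockout differences of 0.50, 0.10 and 0.31. Within the set, Postn and Fn1 (0.33) and Fn1 and Fbln2 (0.34) were the closest pairs, Spon1 and Spon2 were 0.51 apart, and Spon1 and Tnc, at 1.61, were the farthest apart.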

How the data were processed

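The deposited values are log2 intensities of 45101 Affymetrix probe sets on 12 single-colour arrays, which the authors made with RMA and limma 2.9.16 per the submitters' processing notes. RMA brings the arrays to nearly the same distribution of signals, with array medians of 5.73 to 5.80 here. A difference is therefore relative to the other genes of the array, and a shift shared by all genes would not be seen. The chip definition and genome build are not given in the sources used here. Arrays have no read depth.

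The platform table gives 34945 probe sets 1 symbol, 932 several and 9160 none, and 64 are controls. For each of 18193 genes the probe set with the highest mean signal was used. The 4 group means were fitted together with limma 3.58.1 in R 4.3.3 (lmFit and eBayes, 8 residual and 2.15 prior degrees of freedom, two-sided, Benjamini and Hochberg adjustment over all genes, called at an adjusted p under 0.05). P-values set a difference of group means against the spread between mice within groups. That spread is pooled over the 4 groups, so a wildtype test also depends on the knockout arrays. Scores are means of list genes centred over the arrays. Promoter letters were searched in RefSeq windows. The script was tested on simulated data. Figures used matplotlib 3.10.9.

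The members and the lists of related and marker genes were chosen with earlier results of these data known. Named are all members, up to 4 called genes per list and comparison (or those with the smallest p where none was called), and the 3 genes most like Spon1 and Cthrc1. Fbln7 and Emilin1 were named after their values were seen. Alternatives covered the probe set rule, dim genes, scaling, the eBayes prior, array weights, a replicate block, the threshold, the arrays fitted and each array left out. The fibroblast score subtraction was added after the data were seen.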

Additional observations from a re-analysis of the deposited data

Results flagged for a closer look

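The probe set 1421811_at carries the symbols Pald1 and Thbs1 and was left out of the gene comparisons for that reason. It is listed here because its signal differed with estradiol in wildtype, at 5.77, 5.69 and 5.38 on placebo and 6.78, 8.14 and 7.72 under estradiol, a difference of 1.94 ± 0.43 (SE; adjusted p = 0.0735 in the limma fit of 45037 single probe sets). In knockout it measured 6.29, 5.0 and 5.37 on placebo and 5.08, 5.93 and 4.70 under estradiol, a difference of -0.32. Under estradiol the knockout arrays lay below the wildtype arrays by a difference of -2.31 (adjusted p = 0.053). Which of the 2 genes it reads was not tested.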

How the results depend on the processing

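With 3 arrays a group, the count of called genes among the 8 moved with most choices. The 2 wildtype estradiol calls became 1 with the mean of a gene's probe sets, with single probe sets, with quantile scaling, with median centring and with the replicate block, 0 with the 6 wildtype arrays alone, 6 with array weights, whose estimation stopped before it converged, 5 at an adjusted p under 0.1 and 5 without wildtype placebo 3 and knockout placebo 2. Leaving out single arrays gave 1 to 5. Spon2, read by its brighter probe set or by the mean of its probe sets, was called under each of these settings but the wildtype arrays alone. Thbs1 had adjusted p of 0.00257 to 0.205. The 1 call between genotypes under estradiol became 0 with the mean of probe sets, single probe sets, quantile scaling, median centring, the replicate block, the arrays of the comparison alone and without the dimmest 40% of genes, which leaves out Thbs1 itself. It became 3 with array weights, 2 at an adjusted p under 0.1 and 3 without wildtype placebo 3 and knockout placebo 2, and 0 to 2 with single arrays left out. The 0 calls of the interaction became 0 to 1 with single arrays left out, and those of the average genotype difference 0 to 1, and 1 with array weights (Fbln2). Calls over all genes moved too. For estradiol in wildtype (342 calls) they were 4702 with array weights, 2154 without wildtype placebo 3 and knockout placebo 2, 715 at an adjusted p under 0.1, 186 with median centring, 158 with the replicate block and 71 with the wildtype arrays alone. For genotype under estradiol (204) the same settings gave 428, 472, 473, 92, 45 and, with the arrays of the comparison alone, 47. Leaving out single arrays gave 100 to 1146 for estradiol in wildtype, 10 to 25 in knockout (18), 0 (without knockout estradiol 3) to 315 for genotype under estradiol, 0 to 18 for the interaction (2) and 0 to 66 for the average genotype difference (0), which had 198 with array weights. Median centring moved the median of all genes from 0.01 to -0.12 in the wildtype comparison and from 0.03 to 0.19 between genotypes under estradiol, where the members' medians were then 1.28 and -1.21. Deviations of same-numbered arrays correlated at -0.74 to 0.66. Differently numbered arrays were not compared, so this does not decide whether replicate numbers pair the arrays, and the replicate block is only an alternative.

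Some differences turned sign under the alternatives. With the fibroblast score subtracted, Tnc (-0.42) and Sparc (-0.46) turned for estradiol in wildtype, Thbs1 (0.131) in knockout, Tnc (-0.071) and Thbs2 (-0.15) between genotypes on placebo and Sparc (0.18) under estradiol. On placebo the genotype difference turned for Spon2 (0.0567), Tnc (-0.10) and Thbs1 (0.0284) with the mean of probe sets, for Thbs2 (-0.0699) with array weights, for Fbln2 with quantile scaling (0.0235) and median centring (0.0109), and for Thbs1 (0.0577) without wildtype placebo 3 and knockout placebo 2, where the average genotype difference of Sparc turned too (0.0382). With single arrays left out, the knockout estradiol difference ran from -0.60 to 0.30 for Postn, -0.18 to 0.10 for Thbs1, -0.25 to 0.78 for Fn1 and -0.48 to 0.0004 for Cthrc1. The genotype difference on placebo ran from -0.28 to 0.14 for Spon2, -0.087 to 0.28 for Tnc, -0.19 to 0.0847 for Thbs1, -0.33 to 0.39 for Thbs2 and -0.47 to 0.38 for Fbln2, and the average genotype difference of Sparc from -0.26 to 0.10. Apart from the settings whose construction leaves out arrays or genes, the cause was not tested.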
